A study of Mus musculus with 8 samples.

Results

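The subject of this report is miR-375, a microRNA of which the array carries both arms, miR-375-3p (mmu-miR-375-3p in the files) and miR-375-5p (mmu-miR-375-5p). These are 2 of the 1881 mouse miRNAs on the array. They were chosen by the name of the miRNA that the study followed up after measuring these same arrays, so that the difference between irradiated and non-irradiated sera is given below as a description, with no test. Serum RNA was measured on 8 one-colour Agilent mouse miRNA arrays, of which 4 held sera without irradiation (0 Gy) and 4 held sera after whole-body X-rays at a dose of 7 Gy. All mice were male C57BL/6NJcl mice, 8 weeks old at irradiation, and 30 ng of serum RNA was labelled per array with the dye Cy3. The irradiated sera were drawn at 72 h, whereas the time of the non-irradiated sera on the arrays is not named in the sources used here. The labels do not say whether each replicate was the serum of a separate mouse, and p-values below therefore measure only the spread between these arrays.

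A microRNA is cut from a hairpin precursor, and both strands of the stem can leave mature arms. Usually one arm is loaded into Argonaute and pairs with target mRNAs through its seed, the bases near its 5′ end, whereas the other is degraded. The abundant arm of miR-375 is the 3p arm. It is one of the most abundant miRNAs of pancreatic islet beta cells, where it limits insulin secretion through targets such as myotrophin (Mtpn). It is also made in enteroendocrine and other secretory epithelial cells of the gut. In serum a miRNA is outside its cells of origin, and the level of a miRNA does not tell which tissue released it. As in any bulk sample, more cells that release a miRNA and more of it per cell cannot be told apart.

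The RefSeq miRNA table (GRCm38.p6) held miR-375-5p. It lies on the minus strand at chr1:74900696-74900717, in the gene Mir375, which overlapped 0 other annotated genes and lies between Cryba2, a lens crystallin gene, and Cfap65. MiR-375-3p was not in that table, so that only the sequence of miR-375-5p is shown, with the seed (bases 2 to 8) in capitals.
miR-375-5p: gCGACGAGccccucgcacaaac
Of its 22 bases, 68.2% were G or C, and 5.54% of the 1679 mature sequences in the table had a higher share. Its seed was shared by 0 other mature sequences. Among the 1608 miRNAs of the array with a sequence in the table, the longest run it shared with another was 8 bases. MiR-147-5p, miR-5627-3p and miR-6896-5p were among those that shared 8.

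The arrays differed from each other in ways that bear on every value of miR-375. The 90th percentile of the signal over all miRNAs lay between 33.4 and 91.2 array units at 0 Gy, and between 7.68 and 93.9 at 7 Gy. The software called 531 to 603 miRNAs detected per non-irradiated serum and 378 to 687 per irradiated serum. The labelling spike-ins, synthetic RNAs added before the dye reaction, were out of the range accepted by the software on 7 Gy replicates 1, 3 and 4, with log10 signals of 2.31, 1.95 and 1.97, and in range on the other 5 arrays. The part of labelling in the results below was not tested beyond the values given. All arrays shared 1 slide, on which each group took its own columns, and the effects of column and of irradiation cannot be told apart. To compare arrays, each was scaled to a common 90th percentile, as the study's methods state, which multiplied the signals by 0.390 to 1.06 at 0 Gy and by 0.379 to 4.63 at 7 Gy.

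MiR-375-3p was detected on all 8 arrays, and after scaling it was higher than in every non-irradiated serum in 3 of the 4 irradiated sera. The scaled signal was 129, 115, 130 and 130 array units in 0 Gy replicates 1 to 4, and 470, 457, 362 and 126 in 7 Gy replicates 1 to 4. The irradiated sera thus fell into 3 high arrays and 1 that lay within the range of the non-irradiated sera, and the groups overlapped. The software's own error of the signal was 7.27% to 7.46% on every array, and covers the measurement of that array alone. The non-irradiated sera averaged 126 ± 7.20 (SD, n = 4), and the irradiated sera averaged 354 ± 159 (SD, n = 4). On the log2 scale the means were 6.97 and 8.30, a difference of 1.32 with a standard error of 0.451, or 2.50-fold. All of these values lay above the floor of 100 array units below which signals were set to the floor.

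For background, 208 miRNAs could be tested over all arrays with limma, and 4 were called higher (1.92%) and 4 lower (1.92%) at 7 Gy, at an adjusted p under 0.05. MiR-375-3p was among the 208, and since it had been chosen on this contrast, no p is given for it. The median log2 difference over the 208 miRNAs was 0.17, 124 of them lay above 0, and 24 had a larger log2 difference than miR-375-3p.

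Before scaling, the picture was different. The unscaled signal of miR-375-3p was 330, 255, 122 and 140 array units in 0 Gy replicates 1 to 4, and 109, 1208, 78.2 and 167 in 7 Gy replicates 1 to 4. One irradiated serum, replicate 2, was 3.66 times the highest non-irradiated serum, whereas replicates 1 and 3 lay below the lowest and replicate 4 within the range. The log2 difference of the unscaled signals was 0.062 with a standard error of 0.950, or 0.15 where 7 Gy replicate 3 was raised to the floor of 100. The high scaled values of 7 Gy replicates 1 and 3 came with scale factors of 4.33 and 4.63, the highest of the 8 arrays, and with labelling spike-ins out of range. 7 Gy replicate 2 was the single irradiated array with the labelling spike-ins in range, and it was high both before and after scaling.

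**Figure D1:**
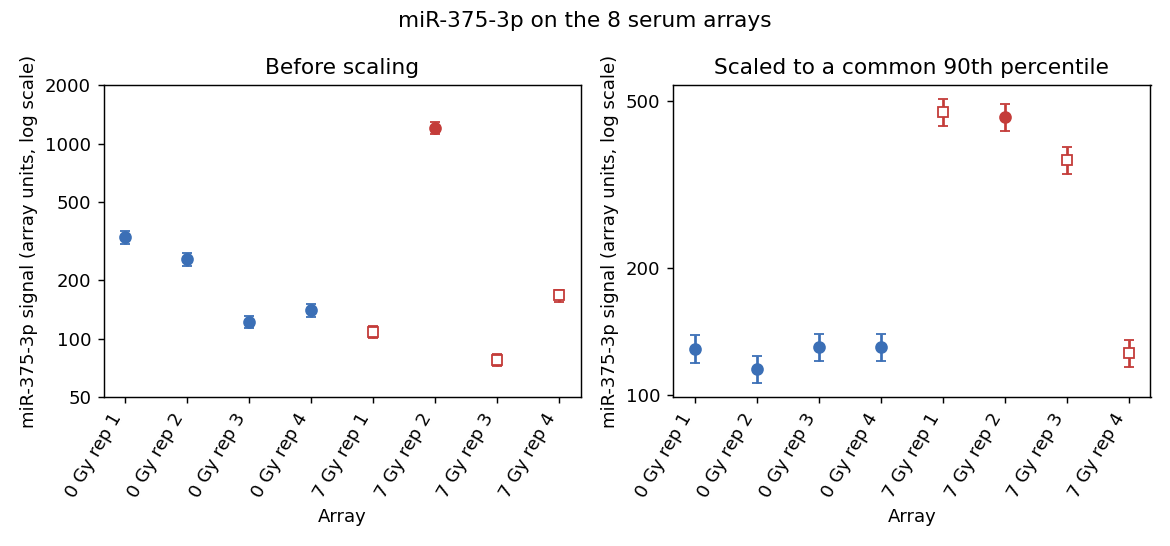
Signal of miR-375-3p on each array (log axes, array units), before scaling on the left and scaled to a common 90th percentile on the right. Bars are the error given by the software, blue is 0 Gy, red is 7 Gy, and open squares are arrays with the labelling spike-ins out of range. Of the irradiated sera, 1 lay above all 0 Gy sera before scaling, at 1208, and 3 did after scaling, at 362 to 470.

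The rank within an array does not depend on its scale. MiR-375-3p was the 96th, 98th, 98th and 85th brightest miRNA in 0 Gy replicates 1 to 4, and the 44th, 37th, 57th and 109th in 7 Gy replicates 1 to 4. In percentiles of the array the non-irradiated sera had 94.9, 94.8, 94.8 and 95.5, whereas the irradiated sera had 97.7, 98.0, 97.0 and 94.2. The same 3 irradiated sera stood above all non-irradiated sera, and replicate 4 stood below all of them. A rank also moves when other miRNAs are lost from an array, and fewer miRNAs were detected on 7 Gy replicates 1 and 3 (379 and 378) than on any array at 0 Gy.

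Other ways of scaling the arrays gave the same direction of the group difference in miR-375-3p but moved single arrays. Quantile normalization gave a log2 difference of 1.16, and the 95th percentile gave 1.05. The 75th percentile, taken over those miRNAs that every array detected, lowered it to 0.68, with 2 of the 4 irradiated sera above the highest non-irradiated serum and 1 below the lowest. Scaling to the hybridization spike-ins, which enter after labelling and were in range on every array, gave 0.92. With them, the non-irradiated sera had signals of 201, 174, 108 and 117, and the irradiated sera had 115, 879, 202 and 273. Thus 3 of 4 irradiated sera lay above the highest non-irradiated serum. These 3 were not the same sera as with the 90th percentile, as replicate 4 rose above the non-irradiated sera and replicate 1 returned into their range. Replicate 3 lay just above the highest non-irradiated serum, at 202 against 201. Scaling to the labelling spike-ins gave 2.36, the largest difference of these scalings, with signals of 49.0, 64.3, 162 and 42.8 at 0 Gy and of 374, 380, 630 and 1256 at 7 Gy. There, all 4 irradiated sera lay above all non-irradiated sera. 7 Gy replicate 2 was above every non-irradiated serum under each of the 9 scalings plotted, and the positions of replicates 1, 3 and 4 depended on the scaling.

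**Figure D2:**
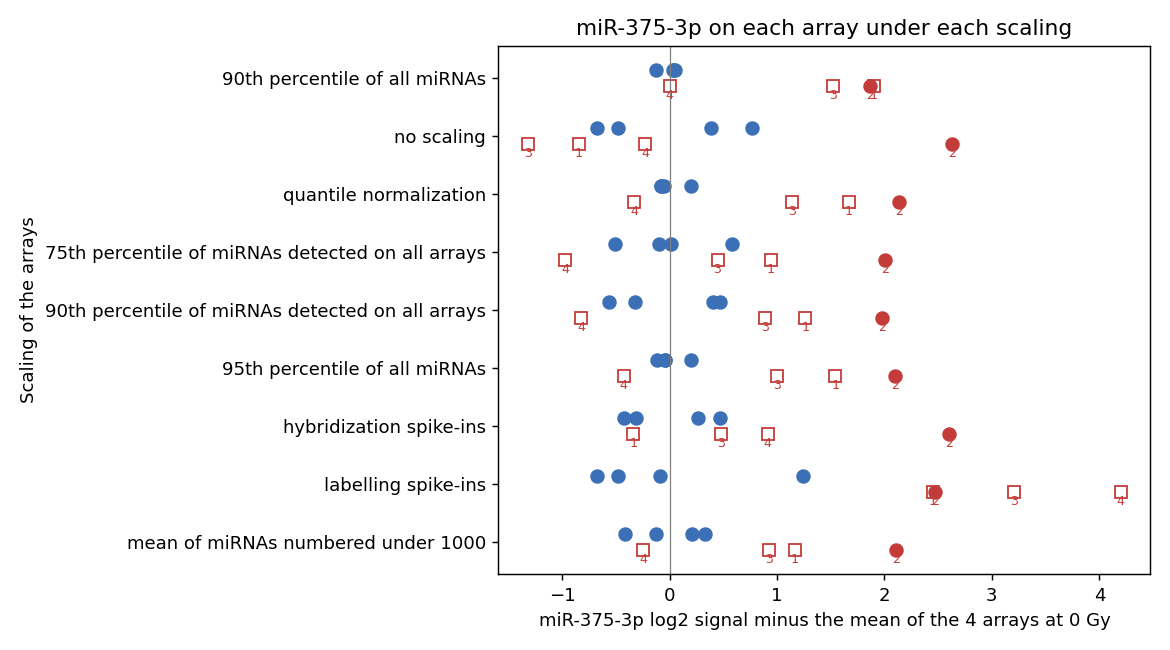
MiR-375-3p on each array under each of 9 scalings, as the log2 signal minus the mean of the 4 arrays at 0 Gy. Blue circles are 0 Gy, red symbols are 7 Gy with the replicate number below, and open squares are arrays with the labelling spike-ins out of range. 7 Gy replicate 2 lay right of all 0 Gy sera in every line, and replicate 4 lay furthest left of the 7 Gy sera in 6 of 9 lines and furthest right with the labelling spike-ins.

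Leaving out one array at a time gave log2 differences of miR-375-3p from 1.13 to 1.76, and the highest was that without 7 Gy replicate 4 (standard error 0.11). On row 1 of the slide, with replicates 1 and 2 of both groups, the difference was 1.93, and on row 2, with replicates 3 and 4, it was 0.72. Over the 5 arrays with the labelling spike-ins in range, which hold a single irradiated serum, the difference was 1.86, where the lone irradiated serum is assumed to vary like the others.

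**Figure D3:**
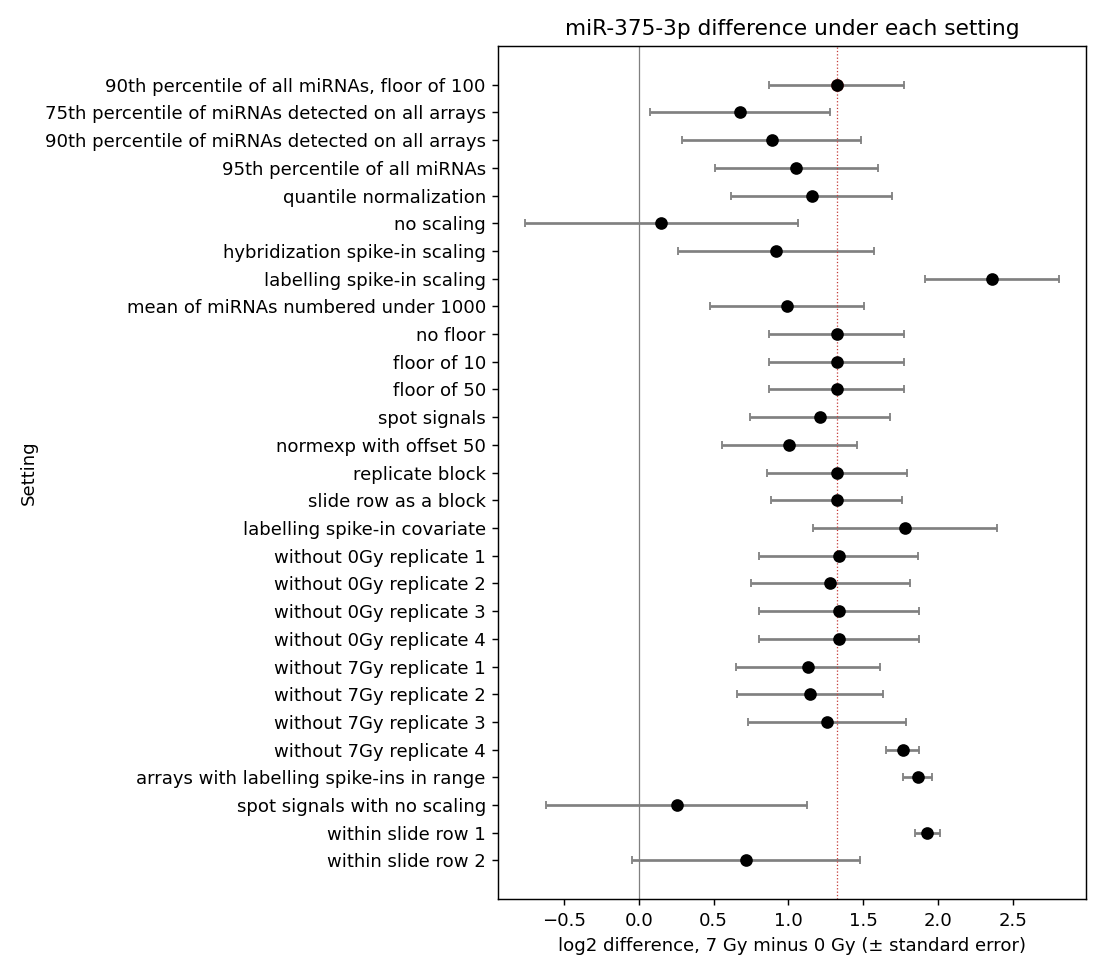
Log2 difference of miR-375-3p, 7 Gy minus 0 Gy, under each setting, with bars of 1 standard error from the spread between the arrays used. The dotted line is the reported value of 1.32. All points lay above 0, from 0.15 with no scaling to 2.36 with the labelling spike-ins, and the bars of both settings without scaling and that of slide row 2 crossed 0.

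The signal of miR-375-3p is the sum of 2 probes, each printed as 15 spots, and both probes gave the same order of the irradiated sera apart from replicates 1 and 2. Probe A_54_P1511 had a scaled signal of 43.2, 39.3, 47.5 and 45.3 at 0 Gy and of 179, 158, 145 and 49.5 at 7 Gy. Probe A_54_P4392 had 85.7, 75.8, 82.5 and 84.5 at 0 Gy and 292, 299.7, 217 and 76.4 at 7 Gy. The log2 difference was 1.45 for the former (standard error 0.43) and 1.25 for the latter (standard error 0.46), and in both probes 7 Gy replicates 1 to 3 lay above all non-irradiated sera. Replicate 4 also did so in the first probe, by a small margin (49.5 against 47.5), and lay within their range in the second. The 15 spots of a probe were all well above background on every array, and their coefficient of variation was 3.46% to 8.42%. Of the 240 spots over the 8 arrays, 6 were marked as outliers by the software. The ratio of the second probe to the first was 1.99, 1.93, 1.74 and 1.87 in the non-irradiated sera and 1.63, 1.90, 1.5002 and 1.54 in the irradiated sera. It was lowest on the 3 arrays with labelling spike-ins out of range. Both probes report the same miRNA, and the cause of their unequal change was not tested.

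**Figure D4:**
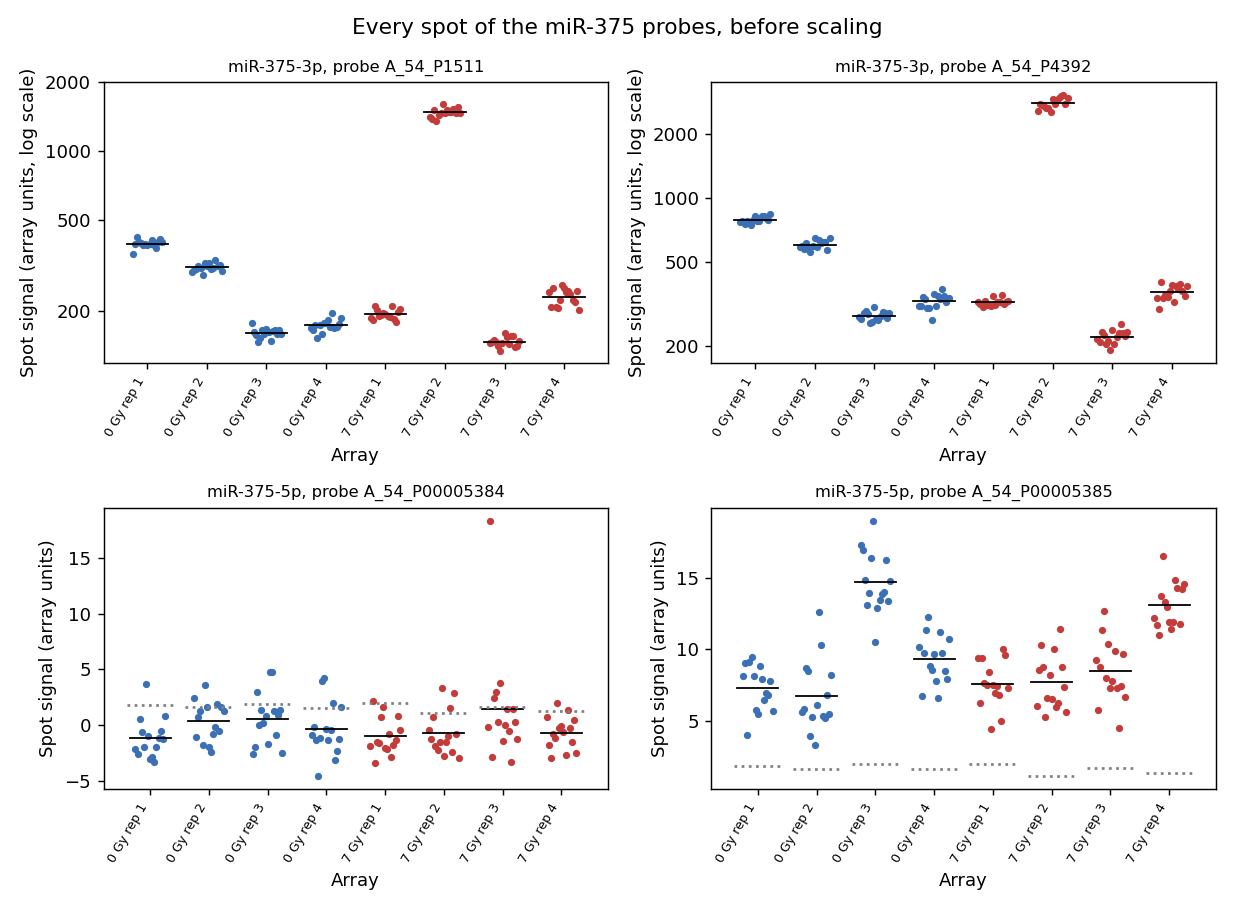
Spot signals of the 4 probes of miR-375 before scaling (array units, log axes above, linear axes below), with 15 spots per probe and array, lines at their means, blue for 0 Gy and red for 7 Gy. Dotted lines are the mean of the negative control spots. The spots of miR-375-3p cluster tightly within each array. For miR-375-5p one probe had means below that of the negative controls on every array, and the other had means of 6.73 to 14.7.

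The other arm, miR-375-5p, was close to the detection limit in both groups. It was called detected in 2 of 4 sera at 0 Gy (replicates 3 and 4) and in 3 of 4 at 7 Gy (replicates 1, 3 and 4). Where it was called, its unscaled signal was 4.11 and 2.61 in the non-irradiated sera and 1.60, 1.79 and 3.70 in the irradiated sera, against 78.2 to 1208 for miR-375-3p. Signals of different probes cannot be set against each other as amounts. After scaling, the highest value of miR-375-5p was 8.30, under the floor of 100 on all arrays, so that it was not tested and both groups were equal at the floor.

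The calls of miR-375-5p rested on 1 of its 2 probes. Probe A_54_P00005384 had spot means between -1.13 and 1.43, whereas the 1000 negative control spots of each array had means of 1.102 to 1.97. Probe A_54_P00005385 had spot means of 7.30, 6.73, 14.7 and 9.32 at 0 Gy and of 7.57, 7.70, 8.45 and 13.1 at 7 Gy. These means lay above the negative controls on all 8 arrays, in the same range in both groups. Their log2 difference, unscaled, was -0.016 with a standard error of 0.315. After scaling, without a floor, the log2 difference of this probe's signal was 1.05 with a standard error of 0.972. The software called a miRNA detected where a probe's signal exceeded 3 times its error. For the brighter probe this quotient was 2.25, 2.39, 4.77 and 3.49 in the non-irradiated sera and 3.19, 2.88, 3.62 and 4.46 in the irradiated sera. A signal of 1.60 was therefore called in 7 Gy replicate 1, and a higher one, of 2.17, was not called in 7 Gy replicate 2, the serum with the highest unscaled miR-375-3p. Between these sera, a missing call was thus no sign of a lower unscaled signal. After scaling, the signal of this probe was lower wherever the call was missing. It was 0.79 and 0.85 in 0 Gy replicates 1 and 2 and 0.82 in 7 Gy replicate 2, against 2.43 to 8.30 where the arm was called.

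MiRNAs of islets and gut, where miR-375 is made, were then set beside it, with those of acinar pancreas, other epithelia and liver. The aim was to see which of them were measured in the same sera. Lists of islet, acinar pancreas, intestine, epithelial and liver miRNAs held 37 miRNAs on the array. Of these, 15 were detected on no array, beside 1077 of all 1881 miRNAs. Detected were 20, 20, 8 and 13 of the 37 in 0 Gy replicates 1 to 4, and 2, 21, 2 and 3 in 7 Gy replicates 1 to 4. The 2 miRNAs detected on all 8 arrays, as miR-375-3p was, were the epithelial miR-205-5p and miR-184-3p of the islet list. There were 16 others that were detected in at least 1 non-irradiated serum and, of the irradiated sera, in replicate 2 alone. The irradiated sera that lacked them were those with the labelling spike-ins out of range, 2 of which were high in scaled miR-375-3p.

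Of these 37 miRNAs, 5 could be tested, and with limma 0 were called higher and 0 lower, and 0 had an unadjusted p under 0.05. Over all 208 miRNAs tested, 46 had an unadjusted p under 0.05 and were higher, and 16 were lower. The median log2 difference of the 5 was -0.13, beside 0.17 over all 208. That median was the value of miR-215-5p, which was at the floor in 3 sera at 0 Gy and 4 at 7 Gy. The sign of that median turned with the handling of labelling. It was 0.63 with the log10 labelling signal as a covariate, beside 0.0061 over all 208 tested. Over the arrays in range it was 0.46, beside -0.095 over all tested. With labelling spike-in scaling it was 0.26, beside 0.50 over all 362 tested. At a limma unadjusted p under 0.05, 1 of 5 was higher with the covariate (12 of all 208), and 1 of 4 with labelling spike-in scaling (26 of all 362). Without 0 Gy replicate 1 the median of the listed miRNAs was 0.055, over 3 tested miRNAs, beside 0.22 over all 194. With no floor the median of the listed miRNAs was -2.78, beside 0.65 over all 633, and miRNAs not called detected entered as 0.1 before scaling. There, 3 of 19 were lower at a limma unadjusted p under 0.05, beside 84 lower and 66 higher of all 633. After adjustment 0 were called with no floor, without 0 Gy replicate 1, with the covariate or with labelling spike-in scaling. Over all miRNAs tested, the calls there were 2 of 633, 1 of 194, 0 of 208 and 0 of 362. Among islet miRNAs other than miR-375, 8 of 12 were detected on no array, beside 1077 of all 1881 miRNAs. The 8 included miR-7b-5p, miR-9-5p and miR-124-3p, which islets share with neurons. MiR-7a-5p and miR-204-5p were each detected in 2 sera at 0 Gy and 1 at 7 Gy, and miR-183-5p in 2 and 0. MiR-184-3p was dim, with scaled signals of 5.46, 4.23, 3.12 and 3.81 in the non-irradiated sera and of 8.17, 2.82, 7.95 and 10.9 in the irradiated sera. It lay above all non-irradiated sera in 7 Gy replicates 1, 3 and 4 and below all of them in replicate 2. Before scaling, at 1.88 and 1.72, replicates 1 and 3 lay below all non-irradiated sera instead (the lowest at 2.94). It was under the floor on all arrays and not tested.

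Acinar miRNAs are made by the cells that secrete digestive enzymes. All arms of miR-216b and miR-217, which mark these cells, went undetected on the 8 arrays, and miR-216a-5p was detected in 7 Gy replicate 2 alone. MiR-148a-3p, abundant in acinar cells but also elsewhere, was detected in 4 sera at 0 Gy and 1 at 7 Gy, with a log2 difference of -0.15 (limma adjusted p = 0.542). In the intestinal list, all 7 miRNAs were detected in the first pair of non-irradiated sera and in 7 Gy replicate 2, whereas 0 of 7 were detected in the other three irradiated sera. MiR-192-5p and miR-215-5p, which share a seed and are abundant in gut epithelium, had log2 differences of -0.31 (limma adjusted p = 0.657) and -0.13 (limma adjusted p = 0.555). MiR-122-5p, the main miRNA of hepatocytes, had a scaled signal of 179, 442, 5.26 and 95.2 at 0 Gy, and of 806 in 7 Gy replicate 2, and was not called in the other 3 irradiated sera. Its log2 difference was 0.0068 with a standard error of 0.83 (limma adjusted p = 0.999). MiR-148a-3p and miR-215-5p were each at the floor in 3 sera at 0 Gy and 4 at 7 Gy. MiR-192-5p and miR-122-5p were each at the floor in 2 sera at 0 Gy and 3 at 7 Gy. Sera at the floor entered with equal values, so these differences are no sign that the miRNAs did not change.

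**Figure D5:**
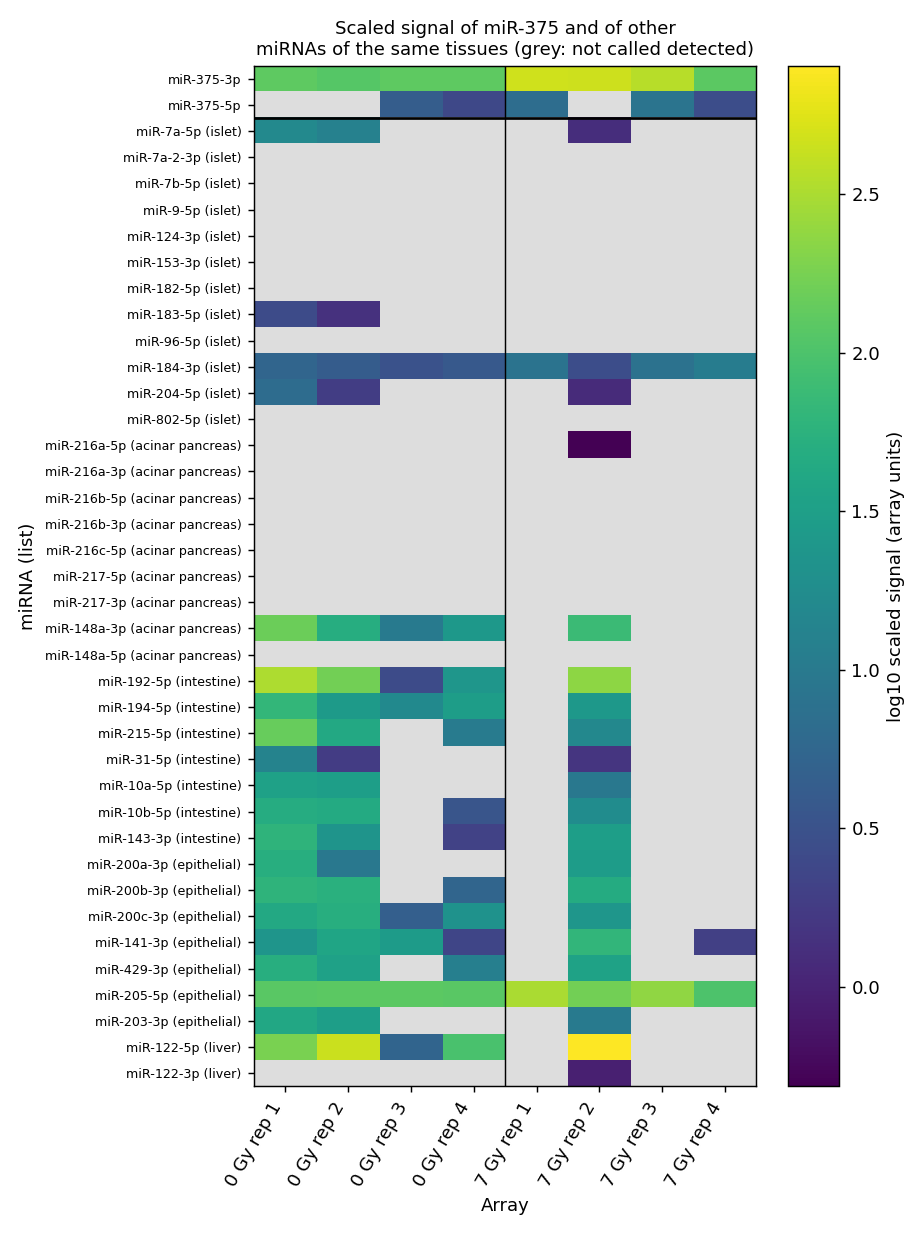
Scaled signal (colour, log10 of array units) of both arms of miR-375 and of 37 miRNAs of 5 tissue lists on each array, grey where a miRNA was not called detected. MiR-375-3p, miR-205-5p and miR-184-3p were detected on all 8 arrays, whereas 7 Gy replicates 1, 3 and 4 had 2 to 3 of the 37 listed miRNAs.

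MiRNAs of blood and muscle cells were measured in the same sera, and each of the 4 lists had a median log2 difference below 0 with this scaling. Of the erythroid list 5 miRNAs were tested, with a median log2 difference of -1.34. The summed scaled signal of that list was 16485 to 82115 at 0 Gy and 7323 to 25822 at 7 Gy. MiR-486a-5p and miR-451a, the most abundant red cell miRNAs, had log2 differences of -0.46 and -5.34 (limma adjusted p = 0.705 and 0.129), and miR-16-5p and miR-15a-5p had -2.13 and -1.34 (limma adjusted p = 0.434 and 0.338). Of the leukocyte list 7 were tested, with a median of -0.32 and a summed signal of 559 to 2209 at 0 Gy and 122 to 508 at 7 Gy. MiR-342-3p, miR-142a-3p, miR-223-3p and miR-181a-5p had log2 differences of -0.62, -1.86, -0.89 and -0.32. Medians were -0.60 for 4 tested miRNAs of platelets and endothelium and -0.37 for 3 of muscle. In these 4 lists limma called 0 miRNAs in either direction, and the unadjusted p was under 0.05 in 1 erythroid, 1 leukocyte and 1 platelet and endothelial miRNA, all lower, beside 16 lower and 46 higher of all 208. Calls appeared in other settings, all of them lower. With a floor of 10 they were 3 of 8 leukocyte miRNAs and 1 of 5 of platelets and endothelium, beside 19 lower of all 513. With normexp they were 2 of 8 and 1 of 5, beside 12 of 633. With spot signals they were 1 of 7 and 1 of 4 (15 of 380), and with the slide row as a block 1 of 7 and 1 of 4 (8 of 208). Without 7 Gy replicate 2 they were 1 of 5 erythroid, 1 of 7 leukocyte and 1 of 4 platelet and endothelial miRNAs, beside 14 lower of all 207. Without 0 Gy replicate 3, 1 of 7 leukocyte miRNAs was called, beside 3 lower of all 205. For platelets and endothelium, 1 of 4 was called without 7 Gy replicate 1 (3 lower of all 207). So was 1 of 4 with the 95th percentile (8 of 195), and with the 75th and 90th percentiles of detected miRNAs (11 of 204 and 1 of 199). The mean of miRNAs numbered under 1000 also gave 1 of 4 (7 of 206). Over those detected on all 8 arrays, 1 of 2 was called (4 of 157). The floor set the size of the medians. With no floor they were -6.62 for the erythroid list, -5.56 for leukocytes, -2.03 for platelets and endothelium and -1.47 for muscle. There, the median over all 633 tested was 0.65, and miRNAs not called detected entered as 0.1 array units before scaling. On each of 7 Gy replicates 1, 3 and 4, the software detected 2 of 6 erythroid and 2 to 3 of 8 leukocyte miRNAs. Scaled to the labelling spike-ins, the muscle median turned to 0.68, and the other 3 stayed below 0, beside a median of 0.50 over all 362 tested. With the log10 labelling signal as a covariate, the medians were 0.046 for the erythroid list and -0.14 for the leukocyte list. They were 0.18 for platelets and endothelium and 0.13 for muscle, beside 0.0061 over all 208 tested. In that fit the log2 difference of miR-375-3p was 1.78 with a standard error of 0.62. The part of blood and muscle cells in the value of miR-375-3p was not tested.

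The patterns most like that of miR-375-3p over the 8 arrays were sought among the 310 other miRNAs detected on all of them, by Pearson's r of log2 scaled signals without a floor. The arrays share a slide, a scale factor per array and the groups, so that r is a description. The median r was 0.31, 70 of the 310 were below 0, and 0 were above 0.9. The highest were miR-205-5p (r = 0.88), let-7d-3p (0.78), miR-574-3p (0.78), miR-8109 (0.76) and miR-3091-5p (0.75). In that order Spearman's rho was 0.71, 0.90, 0.57, 0.67 and 0.62, so that by rho let-7d-3p stood above miR-205-5p. Let-7d-3p, miR-574-3p and miR-3091-5p were dim, with scaled signals of at most 19.7, 64.8 and 43.7. The RefSeq mature sequences of all the miRNAs just named, the highest by r, are shown with the seed in capitals.
miR-205-5p: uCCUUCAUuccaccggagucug
let-7d-3p: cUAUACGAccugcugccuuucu
miR-574-3p: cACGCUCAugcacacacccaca
miR-8109: gCGCCGCGugccggccgcggg
miR-3091-5p: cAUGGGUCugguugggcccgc
None of these seeds was shared with another mature sequence of the table.

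MiR-205-5p, made in stratified and glandular epithelia, stood nearest to miR-375-3p by Pearson's r. Its scaled signal was 122, 123, 123 and 120 in the non-irradiated sera and 314, 168, 233 and 100.3 in the irradiated sera. Before scaling it was 313, 273, 116 and 129, against 72.4, 443, 50.4 and 133. As for miR-375-3p, after scaling 7 Gy replicates 1 to 3 lay above a narrow range of non-irradiated sera, and replicate 4 did not. Its log2 difference was 0.62 with a standard error of 0.33 and missed the threshold (limma adjusted p = 0.259). For the deviations from the group means r was 0.84, and without scaling it was 0.92, where the median r over the 310 was also higher, at 0.54. MiR-205-5p ranked 1st of 310 in both. For the deviations, let-7d-3p, miR-574-3p, miR-8109 and miR-3091-5p ranked 10, 6, 16 and 26. The lowest r were those of miR-181b-5p (-0.80) and miR-150-3p (-0.78), whose genes are active in lymphoid cells. Without scaling they had an r of 0.36 and 0.29, below the median of 0.54 (ranks 231 and 243 of 310), and with hybridization spike-in scaling an r of -0.10 and -0.27. Against the log10 labelling spike-in signal, miR-375-3p had an r of 0.63 before scaling and -0.33 after it, over 8 arrays.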

How the data were processed

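The deposited intensity values were made by the authors with Agilent Feature Extraction (11.5 in the submitters' processing notes, another version in the paper's methods), which subtracted background, summed the probes of each miRNA and wrote 0.1 where a miRNA was not detected. These values are not normalized between arrays. Here the 90th percentile over 1881 miRNAs was made equal on all arrays, signals below 100 were raised to 100, and the log2 was used. The methods name a lower cut-off of 100 without saying whether values were replaced or removed. MiRNAs detected on at least 3 arrays and not at the floor on all (208) were fitted with limma 3.58.1 in R 4.3.3, without covariates, with Benjamini-Hochberg adjustment. The fit was tested on simulated data. Figures used matplotlib 3.10.9. The members, the lists, the rule for named miRNAs (both arms, up to 4 tested members per list with the highest signal, the 5 most and 2 least alike patterns, up to 3 nearest sequences) and the settings were chosen with earlier results of these data known. Added after seeing the data were spot signals without scaling, percentiles, slide rows and single probes. For array data the number of arrays, 4 per group, limits the precision.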

Additional observations from a re-analysis of the deposited data

Results flagged for a closer look

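Within groups of 4 arrays, 14 sets of miR-375 values were checked for 1 array far from the other 3, and 5 were found, where chance gives about 1 in 20 sets. The sets overlap in what they measure. In miR-375-3p at 0 Gy, replicate 2 lay below the others with a scaled signal of 115 (6.85 on the log2 scale), and replicate 4 lay above the others in the percentile of its array, at 95.5. At 7 Gy, replicate 2 lay above the others before scaling, at 1208 array units, though on the log2 scale the same value was not far enough from the others to be marked. In the brighter probe of miR-375-5p at 7 Gy, replicate 4 lay above the others with an unscaled spot mean of 13.1.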

How the results depend on the processing

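The log2 difference of miR-375-3p lay above 0 in all 28 alternatives, from 0.15 (no scaling, with the floor of 100, or 0.062 without the floor) to 2.36. Some of these could not move it and gave 1.32 again. They were floors of 10 and 50 and no floor, as its scaled values all lay above 100. The replicate and slide row blocks, balanced between the groups, were the others. The difference moved by more than the spread between arrays with the 75th percentile of detected miRNAs (0.68), no scaling (0.15), spot signals without scaling (0.25) and labelling spike-ins (2.36). Leaving out 1 array gave 1.13 to 1.76. MiR-375-5p, at the floor in both groups, had a difference of 0, but of 2.09 with no floor, which compares values of 0.1 with detected ones, and of 0.059 with normexp. Leaving out 1 array left it at 0. Calls over all miRNAs, 8 of 208 as reported (4 higher, 4 lower), varied widely, from 1 to 70 when 1 array was left out. The 70 of 207 (56 higher, 14 lower) were without 7 Gy replicate 2. The 1 was without 0 Gy replicate 1 or replicate 2. Calls numbered 18 of 204 with the 75th percentile of detected miRNAs (7 higher, 11 lower) and 7 of 199 with the 90th (6 and 1). The 95th percentile of all gave 18 of 195 (10 and 8), and the mean of miRNAs numbered under 1000 gave 17 of 206 (10 and 7). Quantile normalization gave 6 of 230 (2 and 4). A floor of 10 gave 28 of 513 (9 and 19), a floor of 50 gave 5 of 279 (2 and 3), and no floor 2 of 633 (2 and 0). Spot signals gave 34 of 380 (19 and 15), normexp 18 of 633 (6 and 12), and the slide row as a block 26 of 208 (18 and 8). The methods' t-test gave 48 of 208 at an unadjusted p under 0.05 and a fold change above 1.5 (34 higher, 14 lower). It gave 2 after Benjamini-Hochberg, where no fold change was asked for. Limma called 0 with no scaling (unadjusted p under 0.05 in 1 higher and 17 lower), with hybridization spike-ins (10 and 11), with labelling spike-ins (26 and 3), with the labelling covariate (12 and 21) and with the replicate block (47 and 18). The replicate numbers were not treated as pairs, since 1 of 4 same-numbered pairs had deviations with r under 0.1 (-0.34, 0.43, 0.55 and 0.42), although 3 of 4 arrays at 0 Gy, and 1 of 4 at 7 Gy, correlated best with their own number. With the replicate block the difference of miR-375-3p is 1.32 by construction (standard error 0.47). The tissue lists had 0 calls in all 29 alternatives, among 1 to 19 listed miRNAs tested. Over all miRNAs 8 of 208 were called as reported, and 0 in several settings named above. With so few listed miRNAs tested, 0 calls are no sign that they did not change. The causes were not tested.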
